A study of Mus musculus with 31 samples.

Results

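Slc49a4 and Hspbap1 are neighbouring genes of mouse chromosome 16 whose signals were both higher in the thymus of NDR1-mutant mice than in wild-type thymus, and they were chosen for that difference. All probe sets annotated to either gene alone were read, each on its own. There were 6 such probe sets among 34944 that name 1 gene, 2 for Slc49a4 and 4 for Hspbap1, and the pair makes up 2 of the 18192 genes on the array. The main probe set of a gene is the one with the highest mean over all arrays, 1454654_at for Slc49a4 and 1428566_at for Hspbap1.

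Slc49a4, known earlier as Dirc2, encodes a transporter of the lysosomal membrane. It belongs to the major facilitator superfamily and has been reported in human cells to carry vitamin B6 out of lysosomes. Hspbap1 encodes a protein with a JmjC domain, the fold of an iron-dependent oxygenase, that was found through its binding to the small heat shock protein Hspb1. Genes that lie head to head, with their start sites close together and facing apart, can share a promoter region, and such pairs are common in mammalian genomes.

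The study measured RNA on 31 mouse arrays (Affymetrix 3' expression arrays, which read mostly the 3' ends of transcripts). All mice were C57BL/6, and the genotypes were NDR1-/- (KO), NDR1+/- (HT) and NDR1+/+ (WT), where NDR1 is the kinase encoded by Stk38 on chromosome 17. Tumors came from thymus of mice given N-ethyl-N-nitrosourea (ENU, an alkylating mutagen) at 100 mg/kg, and were taken once a tumor had formed or at 9 months from the ENU dose. The other thymi were normal and came from mice with no treatment. There were 7 KO tumors (6 female, 1 male), 7 HT tumors (6 female, 1 male) and 5 WT tumors (all female), and 4 KO, 4 HT and 4 WT thymi with 2 females and 2 males each. The sources used here do not give how the NDR1 allele was made, or whether the arrays stand for separate animals. The p-values below therefore measure the spread between arrays. Sample titles speak of thymocytes and tumor cells, and the source labels of thymus.

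Values are intensities normalized by the authors with GCRMA, or log2(intensity + 1) of them. The median intensity was 20.0 on all arrays, and the number of arrays limits the precision. The main Stk38 probe set had a mean log2 level of 10.92 ± 0.329 in KO, 11.44 ± 0.115 in HT and 11.86 ± 0.148 in WT thymi (SD, n = 4 each), an order that follows the labels. In tumors the Stk38 levels overlapped, with 8.73 to 13.08 in tumors labelled KO, 10.71 to 12.77 in HT and 11.38 to 13.04 in WT tumors. Another Stk38 probe set, 1439938_at, had means of 9.10, 8.80 and 8.83 in KO, HT and WT thymi and did not follow the genotype. The T cell lineage and double-positive thymocyte markers were at high levels in thymi of every genotype (mean log2 levels 13.36 to 13.56 over arrays). In tumors they were at 8.77 to 12.19 in KO, 10.998 to 12.23 in HT and 11.13 to 11.75 in WT. The 3'/5' ratio of the control genes (log2), a sign of RNA quality, was 0.26 to 0.50 in thymi and reached 3.17 in KO, 4.88 in HT and 2.01 in WT tumors. In bulk RNA, fewer cells of a type and less RNA per cell cannot be told apart.

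In the RefSeq gene table of assembly GRCm38.p6, Slc49a4 lay at chr16:35694062-35769370 on the minus strand and Hspbap1 at chr16:35769726-35828462 on the plus strand. The 2 genes thus stood head to head, with 355 bases between the gene bodies. The RefSeq promoter table, of the same assembly, took the start of Slc49a4 at the same base and that of Hspbap1 within the annotated gene, so that its 2 start sites were 1016 bases apart. The stretches around these starts (250 bases before to 50 after) are shown because they hold the start sites of the 2 genes. The Hspbap1 stretch lay wholly within the annotated Hspbap1 gene. They lay at chr16:35769321-35769620 (Slc49a4, minus strand) and chr16:35770136-35770435 (Hspbap1, plus strand), and read 5' to 3' on the strand of each gene. Capitals mark the E-box CACGTG and, in Hspbap1, the E-box nearest the start with a pair of flanking bases on each side, GTCACGTGAC.
Slc49a4: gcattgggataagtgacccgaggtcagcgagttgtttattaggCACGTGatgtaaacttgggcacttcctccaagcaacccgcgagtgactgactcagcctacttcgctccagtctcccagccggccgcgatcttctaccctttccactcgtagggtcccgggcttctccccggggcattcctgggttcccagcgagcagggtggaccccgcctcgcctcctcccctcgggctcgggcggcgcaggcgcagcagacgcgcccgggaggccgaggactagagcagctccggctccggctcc
Hspbap1: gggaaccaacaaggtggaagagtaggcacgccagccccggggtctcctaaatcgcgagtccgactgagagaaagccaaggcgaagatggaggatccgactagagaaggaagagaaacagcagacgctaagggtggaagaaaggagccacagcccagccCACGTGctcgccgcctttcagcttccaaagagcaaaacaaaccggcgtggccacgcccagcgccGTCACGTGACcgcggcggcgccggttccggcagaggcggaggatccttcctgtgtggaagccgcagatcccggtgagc

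Both stretches were rich in G and C, at 65.7% for Slc49a4 and 62.3% for Hspbap1, against a median of 52.7% and an upper quartile of 61.7% over the 32851 promoters of the table. The Slc49a4 stretch held 1 CACGTG, starting 207 bases before its start site. The Hspbap1 stretch held 2, starting 92 and 26 bases before its start site. CACGTG was present in 7.15% of all promoters. The second of the Hspbap1 matches lay inside GTCACGTGAC, the CLEAR element known from promoters of lysosomal genes, which 0.326% of promoters held. The Slc49a4 stretch, which belongs to the gene of the lysosomal protein, did not hold that longer element. It held 1 GC box (GGGCGG, in 35.7% of promoters) and 1 CCAAT (in 37.4%), while Hspbap1 held neither. No match was found in either for TGACGTCA (1.79% of promoters), the heat shock element GAANNTTC (7.86%) or TATAAA (13.6%). Both strands were searched, and the motifs were picked after the sequences had been seen.

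The thymus values of both genes are the values that chose them, and are given without a test. Slc49a4 (1454654_at) had intensities of 456.1, 418.7, 441.0 and 588.6 in KO thymi, 210.2, 187.0, 314.5 and 271.2 in HT thymi, and 136.8, 166.2, 152.7 and 172.1 in WT thymi. Every KO thymus was above every HT thymus, and every HT thymus above every WT thymus. The mean log2 levels were 8.89 ± 0.218 in KO, 7.92 ± 0.340 in HT and 7.30 ± 0.146 in WT thymi (SD, n = 4 each). The difference was +1.59 for KO minus WT, a 3.005-fold higher level in KO, +0.62 for HT minus WT and +0.97 for KO minus HT on the log2 scale.

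Hspbap1 (1428566_at) gave the same order at a lower signal. Its intensities were 126.1, 106.8, 137.9 and 131.8 in KO thymi, 73.8, 78.3, 102.0 and 81.1 in HT thymi, and 66.6, 52.5, 65.1 and 59.1 in WT thymi. The 3 genotypes did not overlap. The mean log2 levels were 6.98 ± 0.159 in KO, 6.40 ± 0.202 in HT and 5.94 ± 0.154 in WT thymi (SD, n = 4 each). KO minus WT was +1.03, or 2.05-fold, HT minus WT +0.45 and KO minus HT +0.58 on the log2 scale.

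**Figure D1:**
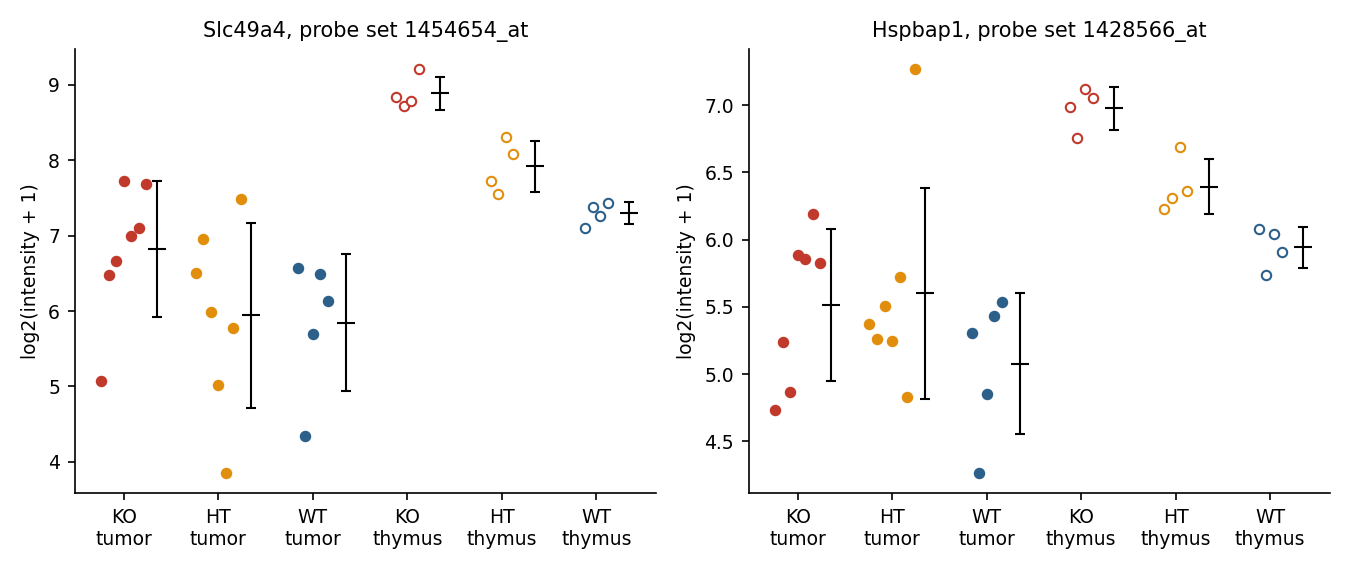
The level of the main probe set of Slc49a4 (left) and of Hspbap1 (right), as log2(intensity + 1), in the 6 groups. Points are arrays (filled for tumors, open for thymi) and the bar beside them is the mean with its SD. In thymus the 3 genotypes do not overlap in either gene, in tumors they do, and HT tumor 07 stands above all other tumors in Hspbap1.

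In both genes the heterozygous thymi lay between the others, and both steps had the same sign. An order without overlap, KO above HT and HT above WT, was found in 3 of the 26208 probe sets tested (0.0114%). These were the 2 main probe sets of the pair and 1440226_at of Zfp760, a zinc-finger gene of chromosome 17, which was named after its values were seen. Every KO array stood above every WT array in 0.790% of probe sets, every HT array above every WT array in 1.24%, and every KO array above every HT array in 0.904%. In the limma fit of all 12 thymi, 24 of 26208 probe sets (0.0916%) passed an adjusted p of 0.05 for KO against WT, 7 higher (0.0267%) and 17 lower (0.0649%). For HT against WT 2 passed (0.00763%), and for KO against HT 10 did (0.0382%). Nothing is read from the pair's place among these calls or among the orders without overlap. The pair was picked from the KO against WT calls, and the other comparisons and the orders share its arrays. The mean level of mature T cell markers was also higher in KO thymi (8.70 to 9.00) than in WT thymi (8.10 to 8.39), with 8.22 to 8.66 in HT thymi and 0 of 4 markers past the threshold for KO against WT. The mean level of neutrophil markers ran the other way, at 5.39 to 7.22 in KO, 6.36 to 8.02 in HT and 7.16 to 9.21 in WT thymi, with a median difference of -2.11 for KO minus WT and -0.83 for HT minus WT and 0 of 5 called (Elane was too dim to be tested). Macrophage markers had a median difference of +0.32 for KO minus WT and +0.50 for HT minus WT, with 0 of 5 called. Thymic epithelium markers had -0.08 and +0.50, with 0 of 6 called. The part of these cell types in the pair's values was not tested.

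The lesser probe sets followed the main ones only in part. Slc49a4 1457245_at, a dim probe set, read 25.1, 30.8, 24.1 and 39.0 in KO thymi, 28.7, 25.2, 22.1 and 24.5 in HT thymi, and 21.0, 18.2, 21.1 and 16.9 in WT thymi. KO and HT thymi were both above all WT thymi, but overlapped with each other. The log2 difference was +0.58 for KO minus WT and +0.36 for HT minus WT. Hspbap1 1441900_x_at, whose probes may also bind other transcripts by the design of such sets, was +0.40 for KO minus WT and -0.25 for HT minus WT, so its HT thymi were not in between. Hspbap1 1442842_at stayed between intensities of 14.6 and 19.5 in all thymi, with -0.02 for KO minus WT. Hspbap1 1428567_at, with a mean log2 level of 3.603, was just short of the filter at 3.605 and was not tested, so 5 of the 6 probe sets were. Its intensity was 7.87 to 14.6 over the 31 arrays, below the array median of 20.0. The genotype difference in Hspbap1 thus rests mainly on 1 of its 4 probe sets.

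**Figure D2:**
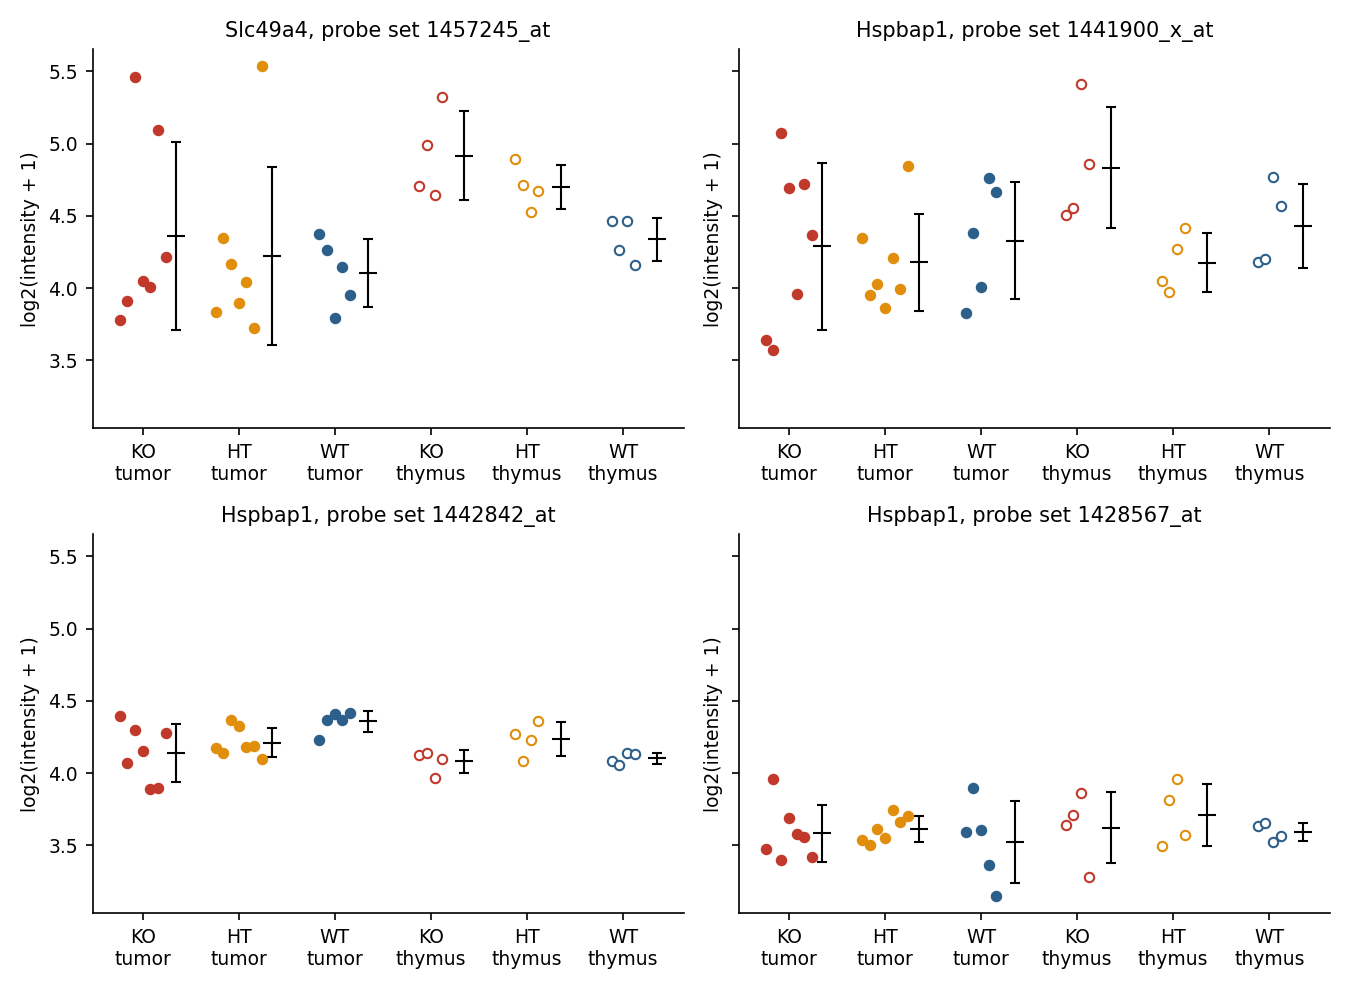
The level of the other 4 probe sets of the pair, as log2(intensity + 1), in the 6 groups. Points are arrays (filled for tumors, open for thymi) with the mean and SD beside them. Only Slc49a4 1457245_at has every KO and HT thymus above every WT thymus, and the thymus genotypes overlap in Hspbap1 1442842_at and 1428567_at.

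The genes around the pair were read to see whether a longer stretch of the chromosome differed along with it. Of the 5 protein-coding genes on either side, 9 were tested and 0 passed the threshold in limma for KO against WT or HT against WT thymus. At an unadjusted p under 0.05 there were 2 for KO against WT (Parp14 and Parp9), against 4.34% of all probe sets, and 1 for HT against WT (Sec22a), against 6.00%. On the Slc49a4 side, Sema5b was too dim to be tested, and the others were Pdia5, a protein disulfide isomerase (-0.31 for KO minus WT), Sec22a (+0.13), Adcy5, an adenylate cyclase (-0.22), and Hacd2 (-0.04). On the Hspbap1 side, the nearest genes were Parp14 (+0.38, adjusted p = 0.406 in limma), Dtx3l (+0.18) and Parp9 (+0.29), all known to be induced by interferon. They were followed by the importin gene Kpna1 (-0.06) and Wdr5b (-0.22). Within 1000000 bases of the pair, 21 other protein-coding genes were tested, and 0 passed for KO against WT. At an unadjusted p under 0.05 there were 6 of the 21, a larger share than the 4.34% of all probe sets. A positive difference was found in 11 of the 21. One of the 21, the peptide transporter gene Slc15a2, had a far larger difference than the pair and of the other sign, at -5.16 for KO minus WT (SE 1.73, adjusted p = 0.892 in limma) and -5.19 for HT minus WT (adjusted p = 0.805). Its values split into high and very low ones within the KO and the HT thymi. The labels give C57BL/6 for all mice, and whether the mice shared the same strain sequence along this stretch of chromosome 16 was not tested. Of the 930 probe sets of chromosome 16 tested, 0 passed for KO against WT thymus beside the 2 that chose the pair.

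**Figure D3:**
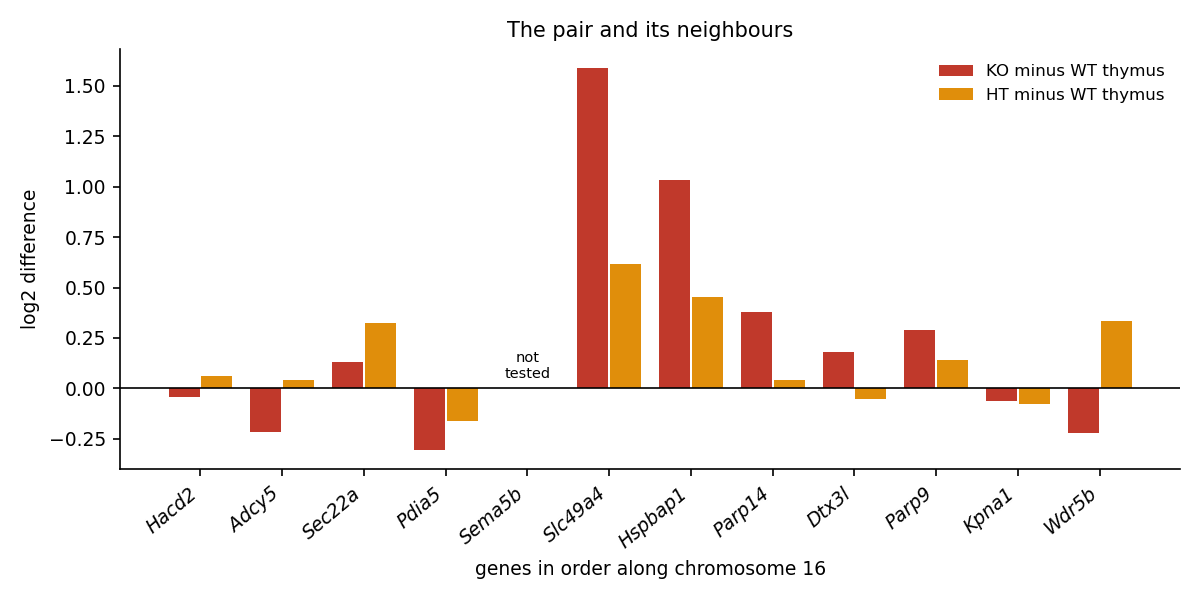
The log2 difference from WT thymus, for KO and for HT thymus, of Slc49a4, Hspbap1 and the 5 protein-coding genes on each side in RefSeq order. The bars of the pair, at +1.59 and +1.03 for KO, stand above those of the neighbours, which lie between -0.31 and +0.38, and Sema5b was not tested.

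Tumors allowed the genotype difference to be tested in arrays that had not chosen the genes. In Slc49a4 the lowest, median and highest intensity was 32.5, 126.8 and 210.3 in KO tumors and 13.4, 62.6 and 177.6 in HT tumors, while the WT tumors read 94.1, 19.3, 50.8, 88.9 and 69.2. Of the 7 KO tumors 5 were above every WT tumor, and 2 of the 7 HT tumors were, so the groups overlapped. The mean log2 level was 6.82 ± 0.903 in KO (SD, n = 7), 5.94 ± 1.22 in HT (n = 7) and 5.85 ± 0.908 in WT tumors (n = 5). In limma the KO minus WT difference was +1.08 (SE 0.590, 95% interval -0.17 to 2.32, adjusted p = 0.970) and did not pass. The interval holds 0 as well as the +1.59 seen in thymus. A 2-sided exact permutation test of the plain difference of means (+0.97) gave p = 0.0997, or 0.384 after adjustment over 6 such tests.

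KO minus HT tumors was +0.88 for Slc49a4 (95% interval -0.24 to 1.99), and HT minus WT tumors +0.20 (-1.05 to 1.44). Hspbap1 had a lowest, median and highest intensity of 25.6, 55.7 and 72.0 in KO tumors and of 27.5, 40.4 and 152.9 in HT tumors. The WT tumors read 38.5, 18.2, 27.9, 42.2 and 45.5. Of the KO tumors 4 of 7 were above every WT tumor, and the groups overlapped. The limma difference of Hspbap1 was +0.49 for KO minus WT (SE 0.381, 95% interval -0.32 to 1.29, adjusted p = 0.970), and the exact permutation p was 0.207 before and 0.384 after adjustment. It was +0.57 for HT minus WT (-0.23 to 1.38) and -0.09 for KO minus HT (-0.81 to 0.64). No probe set of the pair passed in any tumor genotype comparison, nor did any of the 26208 tested (0% in limma). At an unadjusted p under 0.05, 787 probe sets (3.0%) stood out between KO and WT tumors, 640 (2.44%) between HT and WT, and 257 (0.981%) between KO and HT, and 0 of the pair did in any of them. The median within-group SD over all probe sets was 0.696 in KO, 0.630 in HT and 0.483 in WT tumors, against 0.207, 0.193 and 0.190 in KO, HT and WT thymi. Markers of mature T cells (a median of +2.01 for KO minus WT tumors, 0 of 4 called) lay on the same side as the pair, as did those of B cells (+3.37, 0 of 4 called), neutrophils (+2.43, 0 of 5 called) and the interferon-stimulated genes (+1.12, 0 of 16 called). Those of macrophages (+0.88, 0 of 5 called) and thymic epithelium (+0.05, 0 of 6 called) did so too, as did the erythroid gene tested (+0.33, 0 of 1 called). Markers of fibroblasts (-1.34, 0 of 6 called) and of the T lineage and double-positive thymocytes (-0.27, 0 of 8 called) lay on the other side. The mean B cell marker level was 6.16 to 12.63 in KO, 4.45 to 12.18 in HT and 4.89 to 8.33 in WT tumors. Without the 4 tumors of highest B cell marker level, a choice made after seeing the data, KO minus WT was +0.85 for Slc49a4 and +0.29 for Hspbap1. The part of the other markers was not tested.

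Both genes were lower in tumors than in thymus. This comparison took in the KO and WT thymi that had chosen the genes, but it weighted the genotypes equally, so that the KO minus WT difference did not enter its estimate. The SE and p-value came from a fit that held those thymi, so the test was not fully separate from the choice. That fit also used a common spread for thymi and tumors, though tumors varied more. Averaged over the genotypes, Slc49a4 was at -1.86 on the log2 scale (SE 0.344, adjusted p = 0.000331 in limma), 0.275 times the thymus level, and Hspbap1 at -1.05 (SE 0.220, adjusted p = 0.00117), 0.483 times. For Slc49a4, 16 of 19 tumors were below every thymus. The exceptions, KO tumors 04 and 07 and HT tumor 07 at 210.3, 205.2 and 177.6, were above every WT thymus. For Hspbap1, 14 of 19 tumors were below every thymus, and HT tumor 07 at 152.9 was above every thymus of any genotype. Of the 5 probe sets of the pair 2 passed, both lower. Of all probe sets 23.5% passed, 9.99% higher and 13.5% lower, so a lower level in tumors was not rare. Slc49a4 1457245_at was at -0.50 (adjusted p = 0.0615) and the other Hspbap1 probe sets at -0.18 and +0.11, none past the threshold.

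Within genotypes, HT tumors and HT thymi were not among the arrays whose KO minus WT difference chose the genes. The SE and p-value, however, came from the fit of all 31 arrays, which held the KO and WT thymi. The test was therefore not fully separate from the choice. For HT tumors against HT thymi, Slc49a4 was at -2.004 (SE 0.538, adjusted p = 0.0392 in limma), and all 7 HT tumors were below all 4 HT thymi. Over all probe sets 2.84% passed in this comparison (0.786% higher, 2.05% lower), and every HT tumor was below every HT thymus in 4.62%. In a fit of the HT groups alone Slc49a4 was at -2.05 (adjusted p = 0.288 in limma) and did not pass. In the fit of all arrays its call did not hold when HT tumor 04, HT tumor 05 or any 1 HT thymus was left out (adjusted p = 0.0593 to 0.119). Hspbap1 was at -0.80 (adjusted p = 0.267), with 6 of 7 HT tumors below all HT thymi. Without HT tumor 07 it was at -1.06 (adjusted p = 0.0296). As descriptions, KO tumors minus KO thymi were at -2.10 for Slc49a4 and -1.47 for Hspbap1, and WT tumors minus WT thymi at -1.49 and -0.87. All 7 KO tumors were below all KO thymi and all 5 WT tumors below all WT thymi in both genes, as was so in 4.47% of all probe sets for KO and 11.7% for WT. Beside these falls, 7 of 8 T lineage and double-positive thymocyte markers were lower in tumors, and 4 of 6 fibroblast markers were higher. Thymic epithelium markers were lower in 4 of 6 cases (0 higher), and macrophage markers higher in 2 of 5 (0 lower). Their part in the pair's fall was not tested. Tumors also differed from thymi by ENU exposure and the time since, which cannot be told apart from tumor state.

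**Figure D4:**
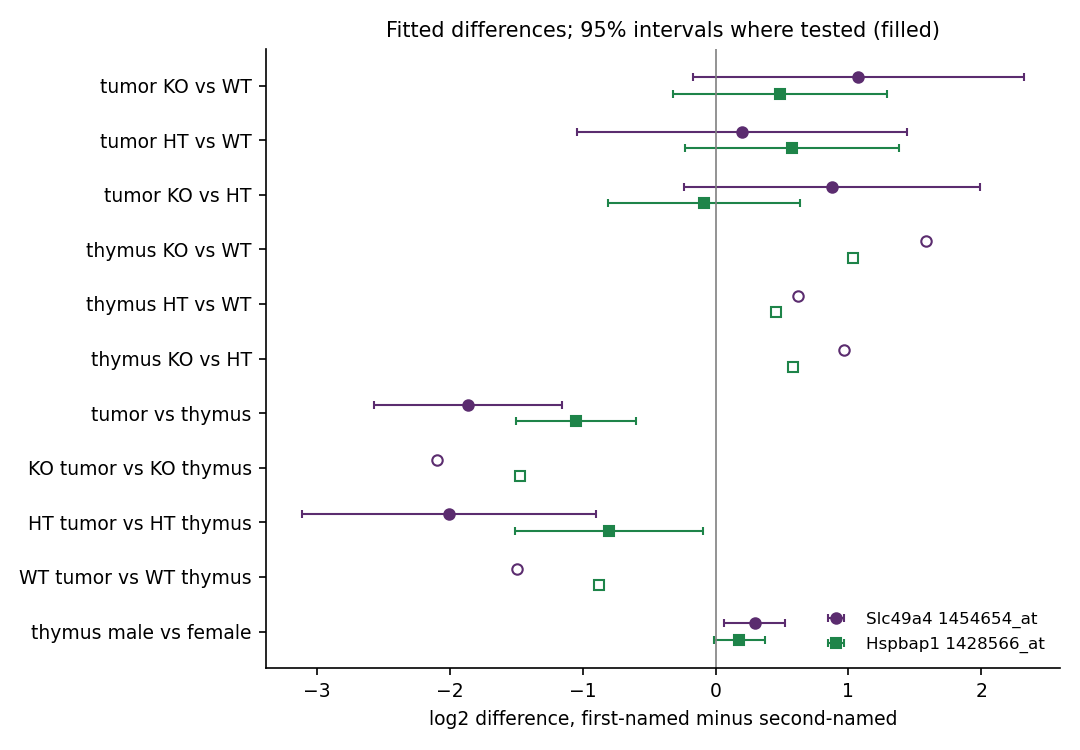
Fitted log2 differences (horizontal axis, first-named group minus second-named) of the main probe sets of Slc49a4 and Hspbap1 in each comparison. Filled points with 95% intervals were tested, and open points are descriptions, because they depend on the thymus genotype difference that chose the genes. The intervals of the tumor genotype comparisons all hold 0, and those of tumor vs thymus lie below 0 in both genes.

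Put in order of its mean, Slc49a4 ran from KO thymus (8.89) over HT thymus (7.92), WT thymus (7.30), KO tumor (6.82) and HT tumor (5.94) to WT tumor (5.85). The range of KO tumors overlapped with those of WT and HT thymi. That of HT tumors overlapped with WT thymi through HT tumor 07, and the tumor groups overlapped among themselves. Hspbap1 ran from KO thymus (6.98) over HT thymus (6.40), WT thymus (5.94), HT tumor (5.60) and KO tumor (5.51) to WT tumor (5.08). Its WT thymi overlapped with KO tumors. The range of HT tumors took in all thymus groups, but only through HT tumor 07. The 2 orders differed only in the place of the HT and KO tumors, whose means were within 1 SD of each other in Hspbap1.

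Male and female thymi, balanced within each genotype, were compared in the same thymus fit. The main probe sets were chosen from that fit, which favours a small residual spread, so their SE here may be too low. Slc49a4 was +0.29 higher in males (SE 0.106, adjusted p = 0.0619) and Hspbap1 +0.18 (SE 0.0873, adjusted p = 0.155), neither past the threshold. The probe set Hspbap1 1441900_x_at passed, at +0.47 (SE 0.0957, adjusted p = 0.00483). It read 41.6 and 28.1 in male against 21.7 and 22.5 in female KO thymi, 18.3 and 20.3 in male against 15.6 and 14.7 in female HT thymi, and 26.3 and 22.8 in male against 17.1 and 17.4 in female WT thymi. Males were above females of their genotype in every case, and the share of all probe sets with that order was not counted. The 1 call among 5 probe sets is near the 25.5% of all probe sets that passed between the sexes (15.6% higher and 9.83% lower in males). Markers of cell types differed between the sexes too. Of thymic epithelium markers 5 of 6 were lower in males and 0 higher (median -1.22). Of macrophage markers 5 of 5 were lower (median -1.34). Differences of sex and of cell content cannot be told apart here.

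The 2 genes moved together from tumor to tumor. Over 19 tumors the log2 levels of the main probe sets had a Pearson r of 0.569 (permutation p = 0.0112) and a Spearman rho of 0.656 (permutation p = 0.00287). With the group means removed r was 0.605 (permutation p = 0.0149) and rho 0.633. Among KO tumors r was 0.790 (exact permutation p = 0.0196, n = 7) and rho 0.786 (exact permutation p = 0.0480), and among HT tumors r was 0.398 (exact permutation p = 0.372, n = 7) and rho 0.286. The WT tumors were too few for a value of their own. Adjusted over these 4 relations, the Pearson permutation p was 0.0262 for each of the first 3 and 0.372 for HT tumors. The Spearman permutation p, adjusted likewise, was 0.00942 over the 19 tumors, with the group means kept or removed. It was 0.0640 for KO tumors, which did not pass, and 0.556 for HT tumors. The difference between KO and HT tumors was not tested.

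Single tumors weighed on this relation in both directions. Without HT tumor 05 and WT tumor 02, the tumors farthest from the Slc49a4 median, r was 0.678. Without WT tumor 02 alone r was 0.471 (permutation p = 0.0517), and without HT tumor 05 alone 0.748. HT tumor 05 had the lowest Slc49a4 of all arrays, 13.4, with an Hspbap1 of 51.8, and WT tumor 02 was low in both, at 19.3 and 18.2. HT tumor 07, high in both at 177.6 and 152.9, had the highest 3'/5' ratio, 4.88, and without it r was 0.540. After both genes were adjusted for the 3'/5' ratio r was 0.533 (permutation p = 0.0206). Hspbap1 itself had r = 0.655 with that ratio (permutation p = 0.00600, 0.108 after adjustment over 18 relations, rho = 0.474), and r = 0.198 without the 2 tumors of most distant ratio. With the mature T cell marker level, Slc49a4 had r = 0.504 (permutation p = 0.0273) and rho = 0.632, and Hspbap1 r = 0.470 (permutation p = 0.0416) and rho = 0.642. After adjustment over the 18 relations these p-values were 0.245 and 0.249. With the B cell marker level, Slc49a4 had r = 0.443 (permutation p = 0.0580, 0.261 adjusted) and rho = 0.547, and Hspbap1 r = 0.414 (permutation p = 0.0778, 0.280 adjusted) and rho = 0.595. Without the 2 tumors of most distant B cell level r was 0.283 for Slc49a4 and 0.280 for Hspbap1. Other probe sets gave r from -0.451 to 0.653 for the pairings of the 2 genes.

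**Figure D5:**
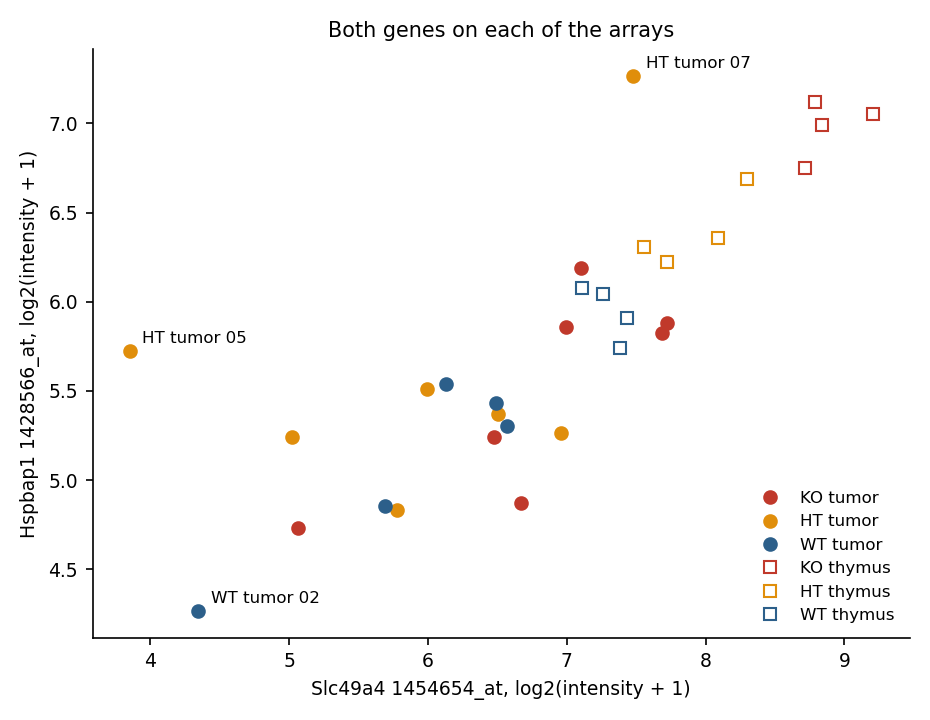
The level of Hspbap1 1428566_at against that of Slc49a4 1454654_at, both as log2(intensity + 1), with 1 point per array (filled circles tumors, open squares thymi). Tumors spread along both axes with r = 0.569, the thymi run from WT at the lower left over HT to KO at the upper right, and the 3 named tumors lie at the edge of the cloud.

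Over the 12 thymi r was 0.939 and rho 0.909, a description, since genotype moved both genes there. With the group means removed it was 0.433, and over all 31 arrays 0.808. Over the thymi each gene was the other's closest partner among 14016 genes, but with the group means removed Hspbap1 ranked 3250 for Slc49a4 and Slc49a4 ranked 3341 for Hspbap1. Over tumors with the group means removed, Hspbap1 ranked 88 of 14016 for Slc49a4 and Slc49a4 ranked 315 for Hspbap1. The genes most like Slc49a4 there were the T cell receptor-associated Cd6 (r = 0.82), the T cell costimulator Icos (0.80), Igfbp4 (0.79), Dap (0.78) and Tlcd2 (0.78). Those most like Hspbap1 were Tenm2 (0.89), Zmynd15 (0.88), Pnrc2 (0.83), Shpk (0.83) and Ubxn11 (0.82). The lists of 5 had no gene in common. All arrays share 1 normalization, and these likenesses are descriptions over 19 tumors.

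Further genes were read from lists chosen by gene family or function, with interferon-stimulated genes added for the neighbours of the pair. For KO against WT and HT against WT thymus, and for KO against WT and HT against WT tumors, 0 members of any list passed in limma. At an unadjusted p under 0.05, of 100 members beside the pair there were 9 in each of the thymus comparisons, 6 for KO against WT tumors and 7 for HT against WT tumors, beside 4.34% and 6.00% of all probe sets for KO and HT against WT thymus and 3.0% and 2.44% for KO and HT against WT tumors. The counts that follow for tumors against thymus stand beside 9.99% of all probe sets higher and 13.5% lower. Of 6 vitamin B6 genes, 3 were higher and 3 lower in tumors than in thymus. Alpl, the phosphatase that frees B6 outside the cell, was at +3.18, the pyridoxal phosphatase Pdxp at +1.31, the pyridoxal kinase Pdxk at +1.26 and Phospho2 at -1.40 on the log2 scale. Of 22 genes listed as B6-dependent enzymes, 6 were higher and 1 lower. The higher ones included the aminotransferases Gpt2 (+2.001), Bcat1 (+1.65) and Psat1 (+1.05) and the glycogen phosphorylase Pygl (+1.19). Of 30 lysosomal genes 4 were higher and 5 lower, with the protease Ctsl at -3.03, the thioesterase Ppt1 at -1.63, the sialic acid transporter Slc17a5 at -1.37 and the sulfatase Sgsh at +1.31. The list medians were +0.45, +0.15 and -0.14, against +0.01 over all probe sets tested.

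On the Hspbap1 side, 1 of 6 small heat shock protein genes was lower in tumors, Hspb8 at -0.27. Of 11 further heat shock genes 1 was higher, the co-chaperone gene Bag3 at +2.29 (adjusted p = 4.33e-07 in limma). Of 8 other JmjC oxygenase genes 1 was higher, Riox1 at +0.74. The SLC49 family had only the heme exporter gene Flvcr1 above the filter beside Slc49a4, and it was at -0.08. Interferon-stimulated genes, the class of the neighbours Parp14, Dtx3l and Parp9, had a median of +0.38 for KO minus WT thymus with 0 of 16 called. In tumors against thymus, 1 of them was higher and 3 lower.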

How the data were processed

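The deposited table held 1 normalized intensity per probe set and array on a linear scale, made by the authors with GCRMA (background correction, normalization and probe summary), per the submitters' processing notes. Of 45101 probe sets, 34944 named 1 gene in the supplied platform annotation. Values were turned to log2(value + 1), and the 26208 probe sets with a mean above the 25th percentile of single-gene probe sets (3.61) were tested. Fits used limma 3.58.1 in R 4.3.3 (lmFit, eBayes, sex as a covariate, Benjamini-Hochberg over all 26208, threshold 0.05). Thymus genotypes and sexes were compared within 12 thymi, tumor genotypes within 19 tumors, and tumors with thymi over 31 arrays. Fits were tested on simulated data. Correlations used SciPy 1.17.1, with 100000 permutations or exact ones for 7 arrays. The members and lists were chosen with earlier results of these data known. Genes named were the pair, Stk38, the 5 genes on each side, the 5 most alike per gene, chromosome 16 genes called, and up to 4 called per list. Same-numbered arrays did not pair. Alternatives covered pseudocount, filter, normalization, covariates, array weights and each array left out.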

Additional observations from a re-analysis of the deposited data

Results flagged for a closer look

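Of 36 sets of values (6 probe sets in 6 groups), those with 4 or more arrays were checked for an array far from the rest of its group, and 3 had one, where chance gives about 1 in 20. Hspbap1 1428566_at in HT tumor 07 had a log2 level of 7.27, while the other HT tumors were at 4.83 to 5.72. Slc49a4 1457245_at in the same HT tumor 07 was at 5.53, while the others were at 3.73 to 4.35. This tumor had the highest 3'/5' ratio of all arrays (4.88), and its part in these values was not tested. Hspbap1 1442842_at in WT tumor 01 was at 4.23, below the other WT tumors at 4.36 to 4.41, a gap that is small on the log2 scale.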

How the results depend on the processing

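Of 374 tested alternative values of the 2 main probe sets and their correlation, 347 kept their direction and their side of the threshold, 11 lost the threshold, 6 gained it and 10 changed sign, and the 224 values given without a test kept their sign. With female arrays only, Hspbap1 in tumor vs thymus was at -0.92 (adjusted p = 0.0502) and its probe set 1441900_x_at at +0.079, and Slc49a4 in HT tumor vs HT thymus at -1.54, past no threshold. Slc49a4 in HT tumor vs HT thymus also lost the threshold in a fit of those 2 groups alone (-2.05, adjusted p = 0.288), and was at -2.24 to -1.68 with each array left out. Hspbap1 there gained it with array weights (-0.99) and with a 3'/5' ratio term (-1.14), and was at -1.06 to -0.68 with each array left out. In tumors, Hspbap1 for KO minus HT was +0.15 with array weights and -0.23 to 0.19 with each array left out, and Slc49a4 for HT minus WT was -0.18 to 0.60, negative without WT tumor 02 or HT tumor 07. Slc49a4 between male and female thymi passed with a filter at the median (+0.29, adjusted p = 0.0474), without WT thymus F_02 (adjusted p = 0.0368) and without KO thymus M_01 (adjusted p = 0.0326), and was at 0.23 to 0.35 with each array left out. Of the lesser probe sets, 1441900_x_at for KO minus WT tumors was -0.039 without sex, -0.0471 with array weights, -0.029 with the 3'/5' ratio, -0.0507 in a fit of all 31 arrays, -0.10 without the 4 tumors of highest B cell marker mean (chosen after seeing the data) and -0.080 to 0.18 with each array left out. Between the sexes, 1442842_at was at -0.0088 to 0.058 and 1457245_at at -0.15 to 0.024 with each array left out. The correlation over tumors was 0.47 to 0.75 with each tumor left out. With other probe sets it was 0.360 (1454654_at with 1441900_x_at), -0.451 (1454654_at with 1442842_at), -0.249 (1454654_at with 1428567_at), -0.292 (1457245_at with 1442842_at) and -0.0542 (1457245_at with 1428567_at). The causes of these changes were not tested.

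The number of probe sets past the threshold over the alternatives was 0 to 42 for KO against WT thymus (24 as reported), 0 to 4 for HT against WT (2) and 0 to 14 for KO against HT (10). It was 2565 to 12123 for tumor vs thymus (6152), 192 to 3343 for HT tumor vs HT thymus (743), 3626 to 7813 between the sexes (6676) and 0 or 1 between tumor genotypes (0). Same-numbered arrays of different genotypes deviated together with correlations of -0.24 to 0.15 in thymi and -0.57 to 0.43 in tumors, so the numbers do not pair them. With the number as a replicate block, KO minus WT tumors was +0.89 for Slc49a4 and +0.27 for Hspbap1, and no call of the pair changed.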

Other observations

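Slc15a2, which encodes the proton-coupled peptide transporter PEPT2, lies at chr16:36750161-36785158 (GRCm38.p6), 922 kb beyond Hspbap1 with 22 protein-coding genes between, and it was named after its values were seen. Its main probe set 1417600_at was at either a high or a very low intensity in every thymus. It read 21.6, 18.7, 1649 and 12.2 in KO thymi and 19.9, 1938, 12.8 and 15.3 in HT thymi, while the WT thymi read 1211, 3507, 2578 and 1467. The high arrays were KO thymus M_01, HT thymus F_02 and all 4 WT thymi. A log2 range of at least 6 within both the KO and the HT thymi occurred in 6 of 26208 probe sets (0.0229%), and the other 5 were of the sex-linked genes Xist, Eif2s3y and Kdm5d. Slc15a2 did not split by sex. Its mean difference was -5.16 for KO minus WT and -5.19 for HT minus WT thymus, neither past the threshold in limma.

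The KO and the HT thymi each had 1 array high in Slc15a2, too few to set against the pair. KO thymus M_01, high in Slc15a2, had a Slc49a4 intensity of 441.0 and an Hspbap1 intensity of 137.9, while the other KO thymi were at 418.7 to 588.6 and at 106.8 to 131.8. HT thymus F_02, also high in Slc15a2, had the lowest Slc49a4 of the HT thymi (187.0) and an Hspbap1 of 78.3, between those of the others. KO thymus M_01, by contrast, did not have the lowest Slc49a4 of its genotype and had the highest Hspbap1. The arrays high in Slc15a2 thus did not run alike, and a link to the pair was not tested. In tumors Slc15a2 read 10.4 to 2000.2 in KO, 10.6 to 2463 in HT and 11.04 to 42.9 in WT tumors, so the WT tumors, unlike the WT thymi, were all low. The other 2 probe sets of Slc15a2 were at 8.68 to 17.8 on every array.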
